A study of Gallus gallus with 4 samples.

Results

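SOX proteins are transcription factors related to the sex-determining factor SRY. They share the HMG box, a DNA-binding domain that inserts into the minor groove and bends the DNA. They fall into subgroups by sequence, and members of a subgroup often act in the same lineages: SoxE in glia, cartilage and gut epithelium, SoxF in endothelium and endoderm, SoxD beside SoxE in cartilage, SoxC in neuronal and lymphoid progenitors, and SoxB1 in stem cells and foregut. In the mouse intestine, SOX8 acts in the maturation of M cells, the antigen-sampling cells of the epithelium over lymphoid follicles, and SOX9 marks the crypts. Here the 10 genes SOX2, SOX4, SOX5, SOX6, SOX7, SOX8, SOX9, SOX10, SOX11 and SOX18 are described, out of 13009 genes named on the array. They were taken by gene symbol, and each probe set that the platform annotation assigns to 1 of these genes alone was included, which gave 18 probe sets of 38439 that are not array controls.

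RNA came from the bursa of Fabricius, the cloacal organ of chicken B cell formation, of healthy SPF Line-M chicks aged 19 days, with no genetic change or treatment named. Follicle-associated epithelium (FAE, 2 samples) covers the lymphoid follicles and interfollicular epithelium (IFE, 2 samples) lies between them. Both were picked with a 29G needle after black ink staining for 5 min and exposure to 40 mM EDTA, which lasted 5 min at room temperature for FAE and 30 min at 37 °C for IFE, so tissue and EDTA exposure cannot be told apart. The labels give neither the sex of the birds nor whether replicates are different birds, and each p-value therefore reflects only the scatter among these 4 samples, possibly technical. In the limma test used below, that scatter is taken partly from other probe sets of like brightness.

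Values are MAS5 signals from a single-colour Affymetrix array, scaled here so that all 4 arrays have the same 2% trimmed mean, and they have no further unit. Background was taken per array as the 95th percentile of unnamed probe sets without the chicken prefix, and it was 0.671 (FAE replicate 1), 0.683 (FAE replicate 2), 0.722 (IFE replicate 1) and 1.02 (IFE replicate 2). IFE replicate 2 stood apart, with a 3'/5' ratio of beta-actin of 31.2 against 14.4 to 18.6 on the other arrays. On every array the 3' signal was thus far above the 5' signal. Where the SOX probe sets lie in their transcripts was not examined. The median absolute log2 difference between replicates was 0.482 in IFE and 0.252 in FAE. The epithelial markers EPCAM and CDH1 were well above background on every array. Both were lower in FAE without overlap, by log2 fold changes of -0.55 and -0.64, but neither passed the test between the groups (adjusted p = 0.134 and 0.114). Of 14 tested epithelial markers, 3 passed as lower in FAE and 1 as higher (median -0.52), against 3.95% and 6.31% of all 10398 tested genes. An untested probe set of the W-linked gene HINTW was under background on every array, at 0.0639 to 0.660. Signals on the tested HINTW probe set were 10.2 and 5.31 in FAE and 0.0864 and 0.178 in IFE. The sex or the individual bird may therefore differ between the groups together with the tissue, and these cannot be told apart here. In these bulk samples, fewer cells of a type and less RNA per cell cannot be told apart.

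SOX8 was higher and SOX7 lower in FAE, each by more than 10-fold between the closest arrays of the groups, and no other SOX probe set passed the test. Of the 18 probe sets, 8 were bright enough to be tested (a mean scaled signal of at least 0.695 over the 4 arrays), and these stood for 8 genes. In that test (limma with Benjamini-Hochberg adjustment, FAE against IFE over all 23063 tested probe sets), 1 SOX probe set was higher, 1 was lower and 6 did not pass at a threshold of 0.05. Over all tested probe sets 5.22% were called higher and 3.01% lower, 8.23% in all. The median log2 fold change, FAE over IFE, was -0.71 over the 8 SOX probe sets and -0.07 over all tested ones. SOX5 and SOX18 passed the brightness limit mainly through their IFE signals, so this median leans toward lower values by construction. It was -0.45 with the FAE signals of those 2 genes raised to the FAE background level, which for SOX5 still uses an IFE signal under background. The remaining 10 probe sets were too dim, and SOX6 and SOX11 had no tested probe set at all.

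**Figure D1:**
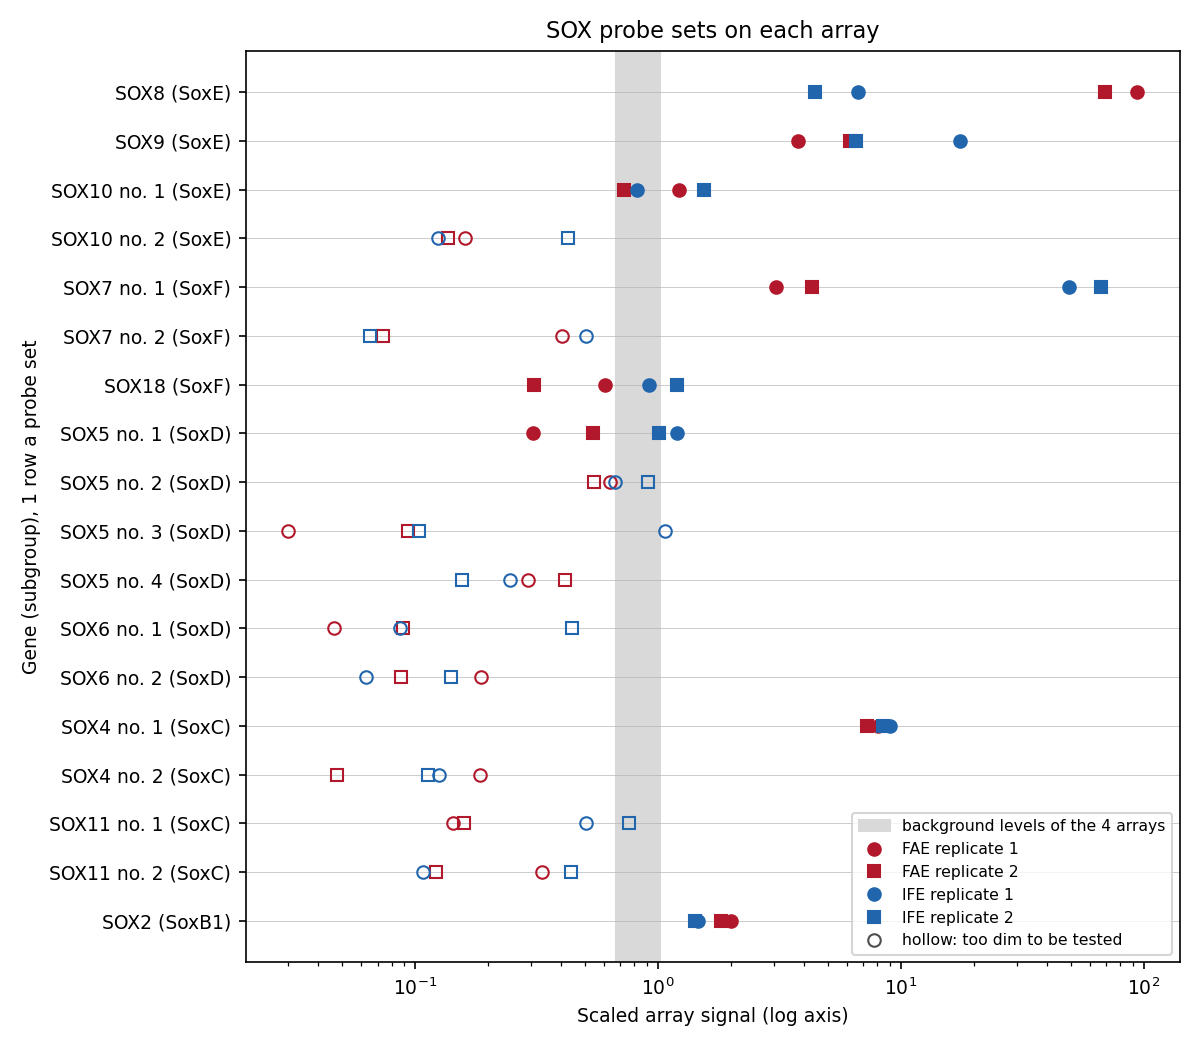
Scaled signal (log axis) of each of the 18 SOX probe sets, 1 row each, with FAE arrays in red and IFE arrays in blue, replicate 1 as circles and replicate 2 as squares; hollow points were too dim to be tested and the grey band spans the background levels of the 4 arrays. SOX8 lies at 69.3 and above in FAE and at 6.65 and below in IFE, SOX7 lies the other way on its bright probe set, and 9 probe sets are at or under background on every array.

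Within SoxE, SOX8 was bright in FAE and neither of its relatives passed the test. SOX8 gave 94.0 and 69.3 on the arrays of FAE, against 6.65 and 4.41 on those of IFE. The lowest FAE signal was 10.4 times the highest IFE signal, and all 4 values were above background. The means were 81.6 ± 17.5 (SD, n = 2) in FAE and 5.53 ± 1.59 in IFE. The log2 fold change was 3.90 (SE 0.30, 95% interval 3.17 to 4.62, limma adjusted p = 0.0023). By p-value SOX8 ranked 41st among all tested probe sets with a higher mean in FAE, and by fold change 115th. The log2 difference between replicates was 0.44 in FAE and 0.59 in IFE, both far smaller than that between the groups.

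SOX9, a factor of cartilage and, in the mouse, of intestinal crypts, leaned the other way, and its verdict rested on 1 array. Its signals were 3.75 and 6.16 in FAE and 17.4 and 6.51 in IFE. The groups did not overlap, but the higher FAE and the lower IFE value were only 1.06-fold apart, and the IFE replicates differed by 1.42 on the log2 scale. The means were 4.96 ± 1.70 (SD, n = 2) in FAE and 12.0 ± 7.72 in IFE, and SOX9 did not pass with all 4 arrays (log2 fold change -1.15, SE 0.50, 95% interval -2.32 to 0.03, limma adjusted p = 0.220). Without IFE replicate 2, the array with the high beta-actin ratio, it passed at -1.86 (limma adjusted p = 0.00682). Without IFE replicate 1 it was -0.44 (0.349). Over all tested probe sets, 1899 were called with all 4 arrays and, without IFE replicate 2, 2464 were called higher and 1819 lower, so the total of calls also rose there.

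SOX10, a factor of neural crest and enteric glia, was close to background. Its brighter probe set gave 1.21 and 0.722 in FAE and 0.820 and 1.55 in IFE, so the groups overlapped (log2 fold change -0.27, SE 0.55, 95% interval -1.56 to 1.03, limma adjusted p = 0.809). Its sign turned to 0.11 without FAE replicate 2 and to 0.19 without IFE replicate 2. The second probe set was under background on all arrays, at 0.124 to 0.424.

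The SoxE genes were also set against each other within each array. The log2 ratio of SOX8 to SOX9 was 4.65 and 3.49 in the FAE samples against -1.39 and -0.56 in the IFE samples, a difference of 5.04. A ratio of signals from different probe sets carries their unequal brightness, and only its change between arrays can be read. In an exact two-sided permutation test over arrays the p was 0.333, the smallest that 2 arrays against 2 allow. It was also 0.333 for SOX8 over SOX10 (a difference of 4.16), and 0.667 for SOX9 over SOX10 (-0.88). Adjusted over these 3 pairs, no p was below 0.5. No pair could have passed with this many arrays, so the test cannot decide whether these genes differ.

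Within SoxF, SOX7 was the gene that passed as lower in FAE. SOX7, known in the mouse from endothelium and early endoderm, gave 3.06 and 4.31 in FAE against 49.2 and 66.9 in IFE on its bright probe set. All 4 values were above background, and the lowest IFE signal was 11.4 times the highest FAE signal. The means were 3.68 ± 0.888 (SD, n = 2) in FAE and 58.1 ± 12.5 in IFE, which is a 15.8-fold difference (log2 fold change -3.98, SE 0.30, 95% interval -4.69 to -3.27, limma adjusted p = 0.00223). Among all tested probe sets with a lower mean in FAE it ranked 1st by p-value and 16th by fold change. The other SOX7 probe set disagreed: it gave 0.401 and 0.0739 in FAE against 0.505 and 0.0651 in IFE, values that were under background on every array.

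SOX18, which acts in blood and lymphatic vessels, was dim. It gave 0.604 and 0.309 in FAE, both under background, and of 0.917 and 1.20 in IFE, both above it. The IFE level of SOX18 was 1.55 times the FAE background level. Background itself was higher on the IFE arrays (0.722 and 1.02) than on the FAE arrays (0.671 and 0.683). That ratio is therefore partly a difference in background, and no minimum fold can be given. SOX18 did not pass (log2 fold change -1.28, SE 0.69, limma adjusted p = 0.316). The groups did not overlap, which also held for 55.9% of all tested probe sets. SOX17, the SoxF gene outside the 10 and an endoderm factor, had 1.42 and 3.10 in FAE and 1.92 and 10.9 in IFE, with overlapping groups (limma adjusted p = 0.440). Its log2 fold change was -2.38 without IFE replicate 1 and 0.13 without IFE replicate 2, so it rested on single IFE arrays.

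**Figure D2:**
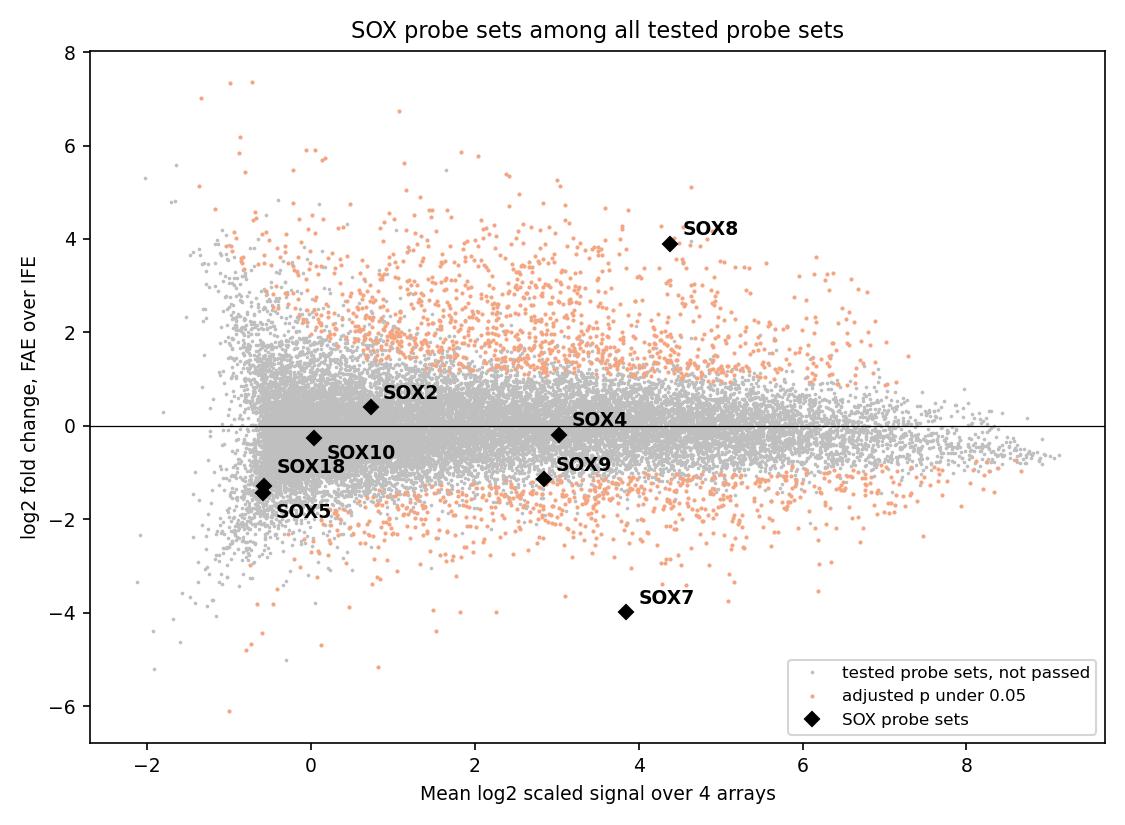
Log2 fold change, FAE over IFE, against mean log2 scaled signal for all 23063 tested probe sets (grey, or orange where the adjusted p was under 0.05), with the 8 tested SOX probe sets as black diamonds. SOX8 at 3.90 and SOX7 at -3.98 lie near the edges of the cloud, and the other 6 lie between -1.44 and 0.41; SOX5 and SOX18 are drawn at fitted values that rest on FAE signals under background.

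The SoxD genes were at or near background. SOX5, which acts beside SOX9 in cartilage, has 4 probe sets, and its brightest gave 0.306 and 0.541 in FAE and 1.20 and 1.01 in IFE, above background on 1 array only, IFE replicate 1. The groups did not overlap. The IFE level of SOX5 was 1.62 times the FAE background level. It includes an IFE signal under background, so no minimum fold can be given. SOX5 did not pass (limma adjusted p = 0.254). Another probe set had 1.07 on IFE replicate 1 and between 0.0301 and 0.104 on the other 3 arrays, and the remaining SOX5 probe sets were under background throughout, at 0.155 to 0.906. Both SOX6 probe sets were under background on every array, with signals of 0.0463 to 0.441, so no change in SOX6 was detectable.

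Among the SoxC genes, SOX4 was above background in both tissues and did not pass the test. SOX4, a factor of lymphoid progenitors in the mouse, gave 8.08 and 7.26 in FAE and 9.06 and 8.40 in IFE on its bright probe set. The means of 7.67 ± 0.579 (SD, n = 2) and 8.73 ± 0.465 differed by -0.19 on the log2 scale (SE 0.26, limma adjusted p = 0.708). The 95% interval of -0.80 to 0.42 leaves room for a moderate difference either way. The other SOX4 probe set was under background on all arrays, at 0.0476 to 0.185, so the probe sets disagree in level. SOX11, known from developing neurons, was under background everywhere. Its brighter probe set gave 0.143 and 0.159 in FAE and 0.507 and 0.756 in IFE.

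SOX2, the SoxB1 gene among the 10, works in stem cells and foregut. Its signals were 2.00 and 1.81 in FAE and 1.46 and 1.42 in IFE, all above background. The FAE values were the higher ones without overlap, by a log2 fold change of 0.41 (SE 0.34, 95% interval -0.39 to 1.20), and the probe set did not pass (limma adjusted p = 0.518). SOX2 and SOX8 were the 2 tested SOX probe sets with both FAE values above both IFE values, and 5 had them below. Of all tested probe sets, 25.4% and 30.5% did so.

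**Figure D3:**
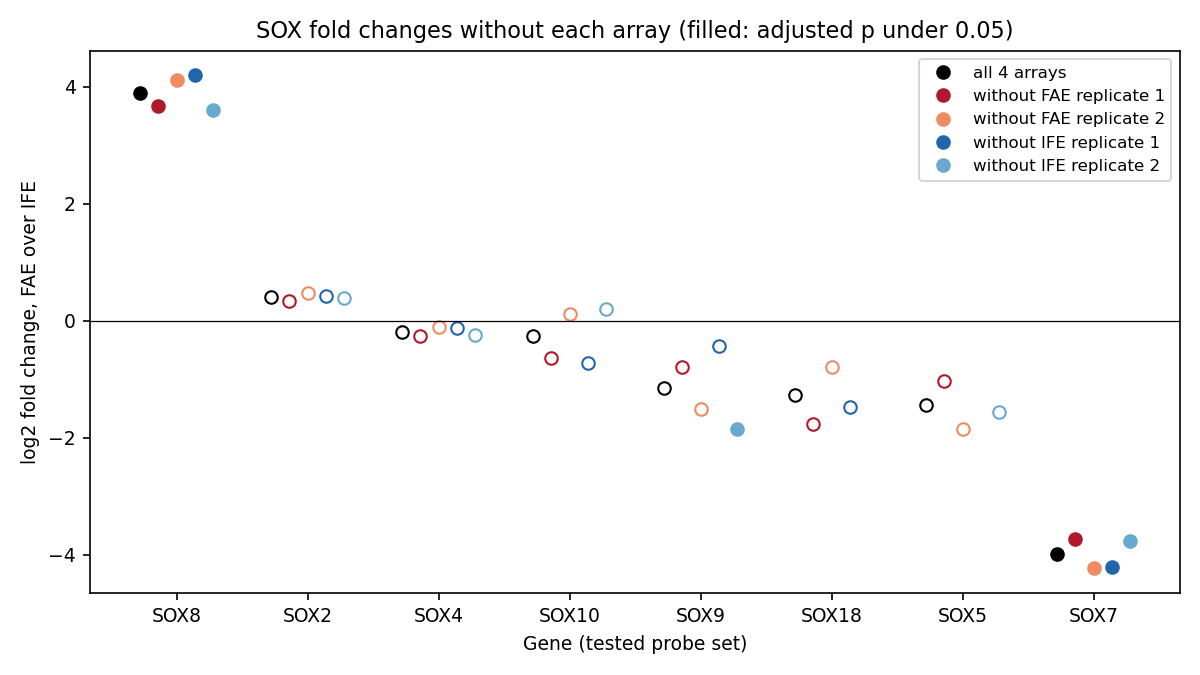
Log2 fold change, FAE over IFE, of the 8 tested SOX probe sets with all 4 arrays (black) and without each array in turn (colours), filled where the adjusted p was under 0.05; a point is missing where the probe set fell below the brightness limit. SOX8 stays between 3.60 and 4.19 and SOX7 between -4.23 and -3.73, all filled, SOX9 is filled only without IFE replicate 2, and SOX10 lies on both sides of 0.

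Other genes with an HMG box gave the family its surroundings, among them the tested SOX genes SOX13, SOX17 and SOX30, none of which passed. Of 26 on the array, 21 were tested, 1 was higher, none was lower and the median log2 fold change was 0.04, against 6.31% higher and 3.95% lower among all 10398 tested genes. The higher gene was TOX3, a chromatin-associated regulator, with 4.53 and 2.96 in FAE and 0.605 and 0.876 in IFE. Both IFE values were under background, so TOX3 was at least 4.27-fold higher in FAE (limma adjusted p = 0.018), a call lost when either FAE array was left out (0.302 without replicate 1 and 0.0810 without replicate 2). The 4 other tested TOX3 probe sets gave 0.77 to 1.97, and 1 of them passed (0.0479). Calls among these HMG-box genes rose when either IFE array was left out, as they did over all tested probe sets. The Wnt effectors TCF7L2, at -1.02 (limma adjusted p = 0.167), and LEF1, at -0.96 (0.571), did not pass. LEF1 had 0.302 and 2.44 on the FAE arrays, and its value was 0.55 without FAE replicate 1 and -2.46 without FAE replicate 2.

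**Figure D4:**
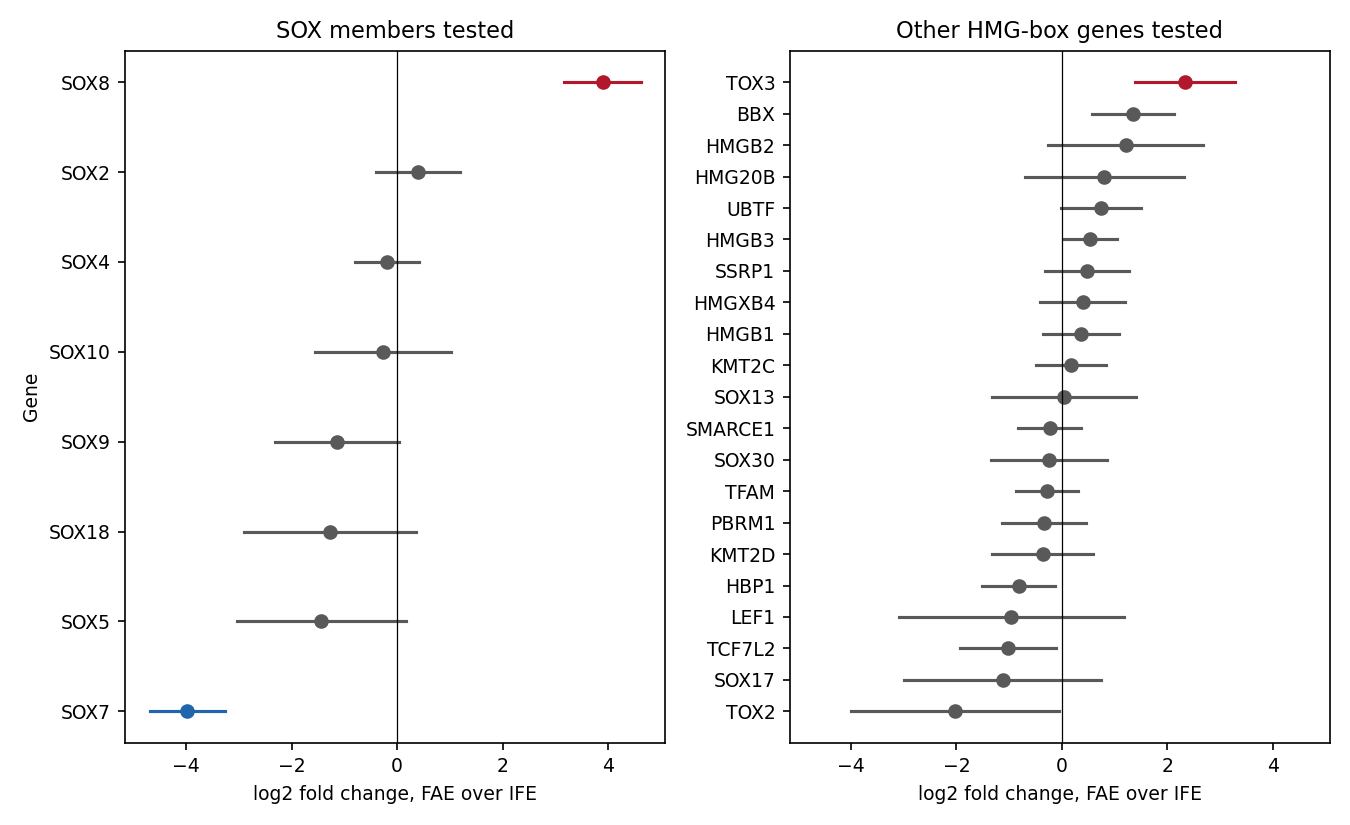
Log2 fold change, FAE over IFE, with its 95% interval for the 8 tested SOX genes (left) and the 21 other tested HMG-box genes (right), red where called higher in FAE and blue where called lower. SOX8 and SOX7 are the coloured points on the left and TOX3, at 2.33, is the one on the right.

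The M cell genes of mammals form the setting in which SOX8 is best known. Of 13 on the array 12 were tested, and 4 were higher and 1 lower in FAE (median log2 fold change 0.24). Over all 10398 tested genes 6.31% were higher and 3.95% lower. These shares are to be set beside this count and those of every list below. MARCKSL1, a regulator of actin, had 142 and 158 in FAE and 47.0 and 50.5 in IFE (limma adjusted p = 0.00606). The chaperone gene CLU had 12.0 and 7.30 against 0.861 and 0.219 (0.00998), and TNFAIP2, a factor of membrane nanotubes, 31.6 and 23.2 against 5.80 and 9.14 (0.0172). TNFRSF11A, the receptor of RANKL, which induces M cells in the mouse, rose by 0.88 on the log2 scale (SE 0.19, 0.0401). The lower gene was ANXA5, a phospholipid-binding annexin, with 34.4 and 46.2 in FAE and 95.3 and 74.7 in IFE (0.047). None of these M cell calls held without FAE replicate 1, and CLU alone held without FAE replicate 2, whereas SOX8 passed without each (limma adjusted p = 0.0281 and 0.0179). TNFSF11, which encodes RANKL, was under background on all arrays, and SPIB and GP2 matched no symbol.

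Many markers of macrophages and B cells were higher in FAE, as SOX8 was. Of 14 tested macrophage and dendritic cell markers 9 were higher in FAE and none lower (median 2.91), and their summed signal was 879 to 1024 in FAE and 108 to 148 in IFE. The other 6 on the array, which were not called, summed to 22.0 and 22.2 in FAE and 26.0 and 20.0 in IFE. Of 11 tested B cell markers 7 were higher and none lower (median 2.71), with sums of 364 to 365 and 144 to 153. The 4 B cell markers not called summed to 178 and 167 in FAE and 122 and 127 in IFE. Both splits follow the calls on these same arrays, so the sums of uncalled genes are no separate evidence. The macrophage gene SPI1 had a log2 fold change of 3.27 (limma adjusted p = 0.00208) and the B cell kinase BTK of 4.27 (0.00208), sizes close to that of SOX8. IRF8 of the first list went the other way, at -1.27 (0.0719), and was at -0.85 without IFE replicate 1 and -1.69 without IFE replicate 2. PAX5 of the second list stood at -0.85 (0.315). In the T cell list CD3E alone was called, 1 of 7 tested, and not without FAE replicate 1 (0.361) or FAE replicate 2 (0.195). Calls in that list rose without IFE replicate 1, as they did over all tested probe sets. Its gene GATA3 stood at -1.23 with all arrays (0.206) and at -2.08 without IFE replicate 1. Of these 3 lists, MRC1 and the T cell genes LCK and ZAP70 were not above background in FAE. The part of these cells in the SOX8 signal was not tested.

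Over the 4 arrays, the profiles most like that of SOX8 were those of DOCK2, ITGB2 and HMOX1, out of 9964 genes compared by Euclidean distance between centred log2 signals. DOCK2, a leukocyte activator of Rac, lay at a distance of 0.19, with 110 and 95.02 in FAE and 9.03 and 5.59 in IFE. The leukocyte integrin gene ITGB2 lay at 0.21 and the haem oxygenase gene HMOX1 at 0.23. For SOX7 they were PDK4, a kinase that restrains pyruvate oxidation, at 0.56, and the small GTPase genes RND3 at 0.68 and RASD1 at 0.69. Another tested RASD1 probe set had a log2 fold change of -0.745 and did not pass (limma adjusted p = 0.417). PDK4 had 9.55 and 9.01 in FAE and 92.5 and 170 in IFE. The likeness rests on 4 arrays that fall into 2 groups.

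**Figure D5:**
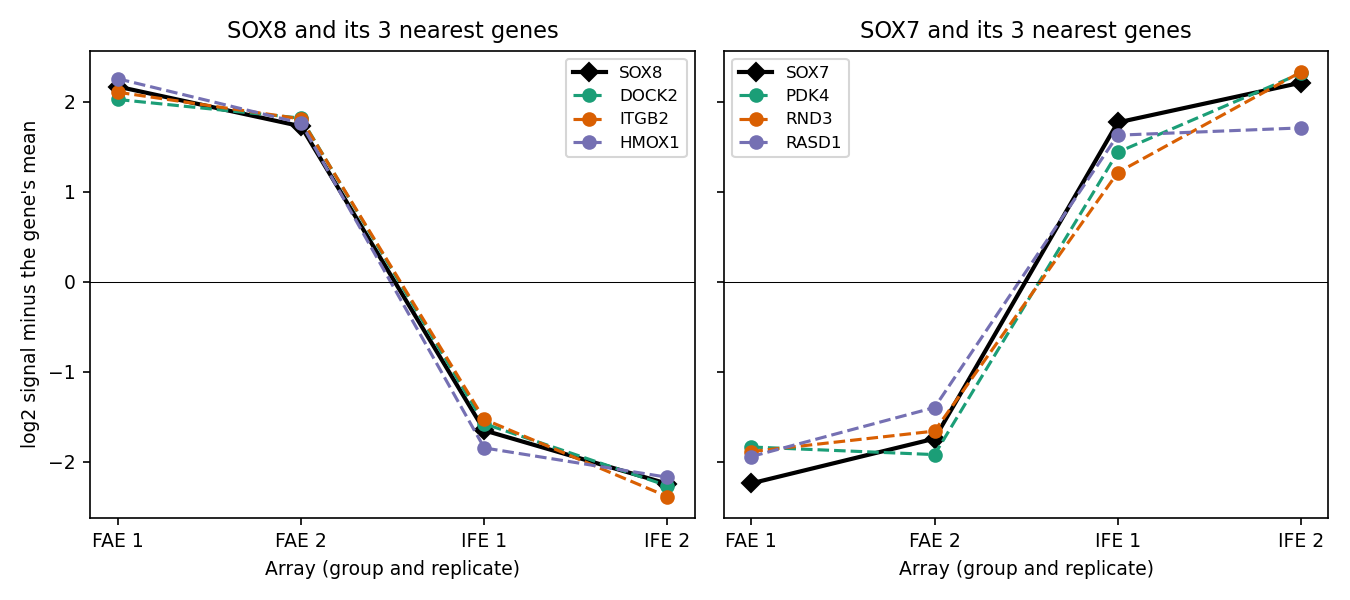
Log2 signal minus the gene's own mean on each array for SOX8 (left) and SOX7 (right), in black, with the 3 genes nearest to each in colour. The SOX8 neighbours run closer to it (distances of 0.19 to 0.23) than the SOX7 neighbours do to theirs (0.56 to 0.69); lines join arrays for legibility and replicates have no order.

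Among endothelial genes, the usual company of SOX7 and SOX18, the called ones went the other way from SOX7. Of 13 tested, 4 were higher in FAE and none lower (median 0.20), and the summed signal was 116 to 153 in FAE and 36.6 to 43.9 in IFE. The other 16 on the array, which were not called, summed to 14.97 and 16.5 in FAE and 18.3 and 27.1 in IFE. That split follows the calls on these same arrays, so it is no separate evidence. The called genes were CDH5, the endothelial cadherin (13.9 and 9.20 in FAE, 0.953 and 1.03 in IFE, limma adjusted p = 0.00256), the ETS factor FLI1 at 2.84, the receptor gene NRP2 at 2.74 and PROX1 at 2.41. PROX1 lies downstream of SOX18 in lymphatic vessels of the mouse, and here it had 24.8 and 17.8 in FAE and 3.60 and 4.32 in IFE. NRP2 and PROX1 did not pass without FAE replicate 1 (limma adjusted p = 0.068 and 0.0921), and neither of the other NRP2 probe sets passed (1.08 and -0.77). EGFL7, a secreted endothelial factor, lay on the side of SOX7, at -1.25 (0.0750). It was at -1.66 without IFE replicate 1 and at -0.85 without IFE replicate 2. PECAM1 did not pass (0.20, 0.817), and KDR was too dim to be tested, at 0.153 and 0.165 in FAE and 0.839 and 1.39 in IFE. Of 20 on the array, 7 were not above background in FAE and 7 in IFE.

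Factors of endoderm and gut were split. Of 14 tested, 2 were higher and 2 lower in FAE (median -0.44). HHEX, a homeobox factor of endoderm and blood, had 74.4 and 67.2 in FAE and 9.52 and 7.99 in IFE (limma adjusted p = 0.0023). GATA5, a gut endoderm factor, had 12.5 and 8.13 in FAE and was not above background in IFE, a difference of at least 11.7-fold (0.0034). Another tested GATA5 probe set was at 3.31 and did not pass (0.151). ELF3, an epithelial factor, was lower by a log2 fold change of -1.48 (0.00895) and HOXD13, of the hindgut and cloaca, by -1.04 (0.0488). Without FAE replicate 1, ELF3 (0.107) and HOXD13 (0.491) lost their calls, and HOXD13 also without FAE replicate 2 (0.365). FOXA2 at -0.50 (0.351) and CDX2 at -0.42 (0.471) did not pass.

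Genes of cartilage and skeleton, listed for SOX9, SOX5 and SOX6, were mostly dim. Of 12 on the array 5 were tested, 1 was higher and none lower. It was LECT1 (chondromodulin), with 8.64 and 6.96 in FAE and values under background in IFE, at least 9.05-fold higher (limma adjusted p = 0.0034), a call lost without FAE replicate 1 (0.511) and FAE replicate 2 (0.256). The 4 tested genes that did not pass lay on the lower side. COMP was at -0.76 and COL9A3 at -0.30. COL11A1 at -4.39 and MATN3 at -1.90 rested on FAE signals under background. COL2A1, the main cartilage collagen, had 0.691 and 0.646 in FAE and 0.461 and 0.791 in IFE, and ACAN 0.607 and 0.485 against 0.0902 and 1.23, all too dim to be tested. Of the 12, 6 were not above background in FAE and 6 in IFE, and 2 were under it on all 4 arrays.

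Genes of glia and neural crest, where SOX10 and SOX8 also act, gave 1 lower gene of 10 tested and none higher (median -0.43). It was SNAI2, a zinc finger factor of migrating neural crest, with 1.08 and 1.35 in FAE and 8.88 and 7.33 in IFE (limma adjusted p = 0.00406, and 0.0513 without FAE replicate 1). Leaving out either IFE array raised the calls in this list, as it did over all tested probe sets. The receptor gene RET had 3.41 and 6.27 in FAE and 11.6 and 22.9 in IFE, and stood at an adjusted p of 0.0506. Of this list, 6 of 16 genes on the array were not above background in FAE and 6 in IFE.

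Among Wnt and beta-catenin genes, whose pathway meets SOX proteins at TCF factors and beta-catenin, 4 of 25 tested were lower in FAE and 1 was higher (median -0.40). The corepressor gene CTBP2 had 26.6 and 34.0 in FAE and 94.8 and 111 in IFE (limma adjusted p = 0.00746). The receptor gene FZD5 was at -2.38 (0.0118) and FZD8 at -1.98 (0.0295), while the secreted modulator DKK3 was at 0.93 (0.0316). Another tested FZD5 probe set was at -1.03 and did not pass (0.475). Without FAE replicate 1 none of the list was called, and without FAE replicate 2 FZD5 alone was. Beta-catenin itself (CTNNB1) was at -0.40 and did not pass (0.244).

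Early response genes moved in the direction of SOX7. Of 13 tested, 9 passed as lower in FAE and none as higher (median log2 fold change -1.47), and the summed signal was 1009 to 1147 in FAE and 2434 to 2690 in IFE. IER3 was at least 15.6-fold lower, and DUSP1 had 71.4 and 86.3 in FAE and 404 and 395 in IFE (limma adjusted p = 0.00232). JUN was at -1.73 (0.00345) and GADD45G at -2.27 (0.00539). Without FAE replicate 1 the list had 4 lower genes and without FAE replicate 2 it had 5. IFE had the longer and warmer EDTA exposure, and the SOX7 difference cannot be assigned to the exposure or to the tissue in this design.

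Epithelial markers gave 3 lower genes and 1 higher of 14 tested (median -0.52), with summed signals of 1445 to 1796 in FAE and 2422 to 2587 in IFE, and all 14 were above background on at least 1 array of each group. VIL1, the microvillus protein villin, was the higher one, at 2.39 (limma adjusted p = 0.00857), and the desmosomal gene PKP2 was lower, at -1.42 (0.00997). Both lost their calls without FAE replicate 1 (0.106 and 0.167), when none of the list was called.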

How the data were processed

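Per the submitters' processing notes, the authors made the deposited intensities (linear signals) with MAS5, with settings not given in the sources used here. The median of every deposited column is 1. Samples were grouped by title and cell type; the source name of the IFE samples reads FAE and was not used. The 96 array controls were left out of 38535 probe sets. Arrays were scaled to a common 2% trimmed mean, log2 was taken without an offset, and probe sets under the 40th percentile of mean signal were not tested. The tissues were contrasted in limma 3.58.1 (R 4.3.3) by lmFit and by eBayes with an intensity trend, two-sided, adjusted over all 23063 probe sets. The fit was tested on simulated data. A gene in a list was represented by its brightest tested probe set. Genes were named through the platform annotation, updated by Entrez ID.

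The members, lists and tests were chosen with earlier results of these data known. Named are all SOX probe sets, up to 4 called genes of each list by adjusted p with a few defining genes, and the 3 nearest profiles of each called SOX gene. HINTW, ANXA5, EGFL7, IRF8, PAX5, GATA3, TCF7L2, LEF1, TNFSF11, MRC1, LCK, ZAP70, RET and CTNNB1 were named after their values were seen. So were SCG5, NFKB2, CTSE, TNFRSF11B, CCL20, ESRRG, TRAF6, SOX13, SOX30, COL11A1, MATN3, COMP and COL9A3. Alternatives were other scalings, filters, an offset, no trend, 1 probe set a gene, no cross-hybridising probe sets, a replicate block and each array left out. No detection calls or probe sequences were used. The 4 arrays limit the precision.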

Additional observations from a re-analysis of the deposited data

How the results depend on the processing

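SOX8 and SOX7 kept their direction and passed under all 13 alternatives, with log2 fold changes of 3.60 to 4.19 and -4.23 to -3.73 and adjusted p-values between 5.25e-05 and 0.0309, the highest without the intensity trend. Among SOX probe sets, 1 was called higher in each alternative, and leaving out 1 array in turn gave 1 to 2 called lower, SOX9 being the second without IFE replicate 2 (-1.86). SOX10 ranged from -0.73 to 0.19 and changed sign at 0.11 without FAE replicate 2 and at 0.19 without IFE replicate 2, and it passed in none. Over all tested probe sets, the count called was 1204 higher and 695 lower. It was 449 and 102 without the intensity trend, 719 and 503 with 1 probe set a gene (10398 tested), and 1540 and 1083 with the replicate number as a block. Leaving out each array gave 191 to 3567 higher and 44 to 2471 lower; the cause was not tested. The block changed no SOX call; deviations of same-numbered arrays correlated at 0.0246 over probe sets, and with 2 pairs the numbers were not taken to pair the samples. The values as deposited shift the median of all tested probe sets by 0.129 on the log2 scale, and under them SOX4 was at -0.06 and SOX9 at -1.02. SOX5, SOX10 and SOX18 had no value with the stricter filter, SOX10 none without cross-hybridising probe sets, SOX5 none without IFE replicate 1 and SOX18 none without IFE replicate 2. List counts without each array were added after the data were seen. Signals near background limit SOX5, SOX6, SOX10, SOX11 and SOX18.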
